A study of Mus musculus with 8 samples.

Results

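The genes examined here were the mouse Mdr1 genes Abcb1a and Abcb1b and 7 other transporters of the ATP-binding cassette (ABC) family, namely Abcc1, Abcc4, Abcc5, Abcg1, Abca1, Abcb9 and Abcb10. They were taken by name as 9 of the 37411 genes in a table of raw read counts. RNA had been sequenced from CD4+ effector T cells marked by a congenic allele, about 10000 per library, sorted 6 weeks after transfer into Rag1-/- mice on the C57BL/6 background. The hosts lack T and B lymphocytes. The cells had been transduced with the retroviral vector LMPd carrying a short hairpin against Mdr1 (shMdr1) or one against CD8 (shCD8), which served as the control. Small intestine lamina propria and spleen were the tissues sorted. Hosts were Asbt-/- or Asbt+/+, where Asbt (Slc10a2) is the transporter that takes up bile acids in the ileum. Each combination of hairpin, tissue and host had 1 library, which gave 8 libraries. Each factor was therefore compared over 4 libraries per level, or over 4 pairs of libraries alike in the other 2 factors. The hairpin was read from the sample titles, since a further label field names shMdr1 for all 8 libraries. Neither the hairpin sequence, nor which Mdr1 gene it targets, nor the genotype of the transferred cells is given in the sources used here.

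ABC transporters use ATP to move substrates across membranes. Humans have a single MDR1 gene, ABCB1, whereas mice divide its function between Abcb1a and Abcb1b, which lie side by side on chromosome 5 and encode closely related efflux pumps for many hydrophobic compounds. In effector T cells of the mouse ileum, Mdr1 activity is known to limit the stress caused by bile acids. Abcc1, Abcc4 and Abcc5 are exporters of organic anions, Abca1 and Abcg1 carry cholesterol and phospholipids out of the cell, Abcb9 transports peptides into lysosomes, and Abcb10 sits in the inner mitochondrial membrane and is needed for heme synthesis.

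Total counts ran between 1685225 and 2767105 per library, so that 1 count stood for 0.394 to 0.642 CPM, the unit of read counts scaled to a common library size. All 14 CD4 T cell markers were detected in every library, with summed levels of 7858 to 11830 CPM. Libraries also differed in what they held besides T cell RNA and in how many genes they detected. The shCD8 small intestine Asbt+/+ library detected 8456 genes, against 11345 to 13184 in the other 7, and held 0 counts for 24.8% of the tested genes, against 1.57% to 8.03% in the others. In that library, 5 of the 9 transporters had fewer than 5 counts. Erythroid markers summed to 41590 CPM in the shMdr1 spleen Asbt-/- library, against 1103 to 5128 CPM in the other spleen libraries and 38.3 to 106 CPM in small intestine. Neutrophil markers summed to 10.7 to 193 CPM in small intestine and 860 to 7581 CPM in spleen. Mitochondrial genes took 6.63% to 26.8% of the counts, with the highest share in the shMdr1 spleen Asbt-/- library. Slc10a2 itself had 1 count in the shMdr1 small intestine Asbt-/- library, 3 in the shCD8 spleen Asbt-/- library and 0 elsewhere. It is an epithelial gene, so its counts in sorted T cells do not check the host genotype.

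Before the levels, the upstream sequences of both Mdr1 genes are given, because these neighbours on the chromosome are close paralogs. The windows are the 250 bases before 1 listed start of each gene, read from RefSeq on build GRCm38.p6, plus strand, 5′ to 3′. These starts were not compared with another annotation, so the windows may not be the promoters in use in these cells. The Abcb1a window is chr5:8566841-8567090 and the Abcb1b window is chr5:8797897-8798146. Capitals mark matches to the CCAAT box (CCAAT, or ATTGG on the other strand) and to the GC box (GGGCGG, or CCGCCC on the other strand).
Abcb1a: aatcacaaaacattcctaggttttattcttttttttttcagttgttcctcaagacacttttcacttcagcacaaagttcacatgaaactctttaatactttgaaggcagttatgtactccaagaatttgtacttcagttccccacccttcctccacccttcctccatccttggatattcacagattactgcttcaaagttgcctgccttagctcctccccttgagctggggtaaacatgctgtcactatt
Abcb1b: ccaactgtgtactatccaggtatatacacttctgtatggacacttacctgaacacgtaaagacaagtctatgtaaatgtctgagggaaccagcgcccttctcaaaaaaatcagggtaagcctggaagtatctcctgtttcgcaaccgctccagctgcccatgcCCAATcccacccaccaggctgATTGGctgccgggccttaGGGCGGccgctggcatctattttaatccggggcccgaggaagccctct
The Abcb1b window held CCAAT 87 bases and ATTGG 66 bases before the start, and GGGCGG 48 bases before it. The Abcb1a window held neither motif. Over 32851 such windows of mouse genes, 33.8% held a CCAAT box match and 32.7% a GC box match, so the letters alone are common. Neither window held TATAAA (12.4% of all windows), the AP-1 site TGANTCA (6.75%), the cAMP response element TGACGTCA (1.55%) or AAAGGTCA, the monomer site of NR4A receptors (1.34%), on either strand. The GC content was 40.4% in the Abcb1a window and 52.8% in the Abcb1b window, and 125 of 230 aligned bases (54.3%) were identical. The transcripts were much more alike, with 86.9% identity over the aligned bases, and 15.5% of the 50-base stretches of Abcb1a occurred unchanged in Abcb1b. Reads from such stretches cannot be assigned to 1 of the 2 genes, and how the counting dealt with them is not given in the sources used here.

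Abcb1a, the Mdr1 gene with more counts (612 over the 8 libraries, against 240 for Abcb1b), was lower in the shMdr1 library than in its shCD8 partner in 3 of 4 pairs, and the difference did not pass the test over all genes. The small intestine pair of Asbt-/- hosts measured 40.4 CPM with shMdr1 and 91.0 CPM with shCD8. The small intestine pair of Asbt+/+ hosts measured 14.8 CPM with shMdr1 and 8.28 CPM with shCD8. This was the pair that went the other way, on 23 and 21 counts. In spleen of Asbt-/- hosts it had 22.2 CPM with shMdr1 and 29.7 CPM with shCD8, and in spleen of Asbt+/+ hosts 18.7 CPM with shMdr1 and 40.8 CPM with shCD8. The 4 shMdr1 libraries (14.8 to 40.4 CPM) lay within the range of the 4 shCD8 libraries (8.28 to 91.0 CPM).

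**Figure D1:**
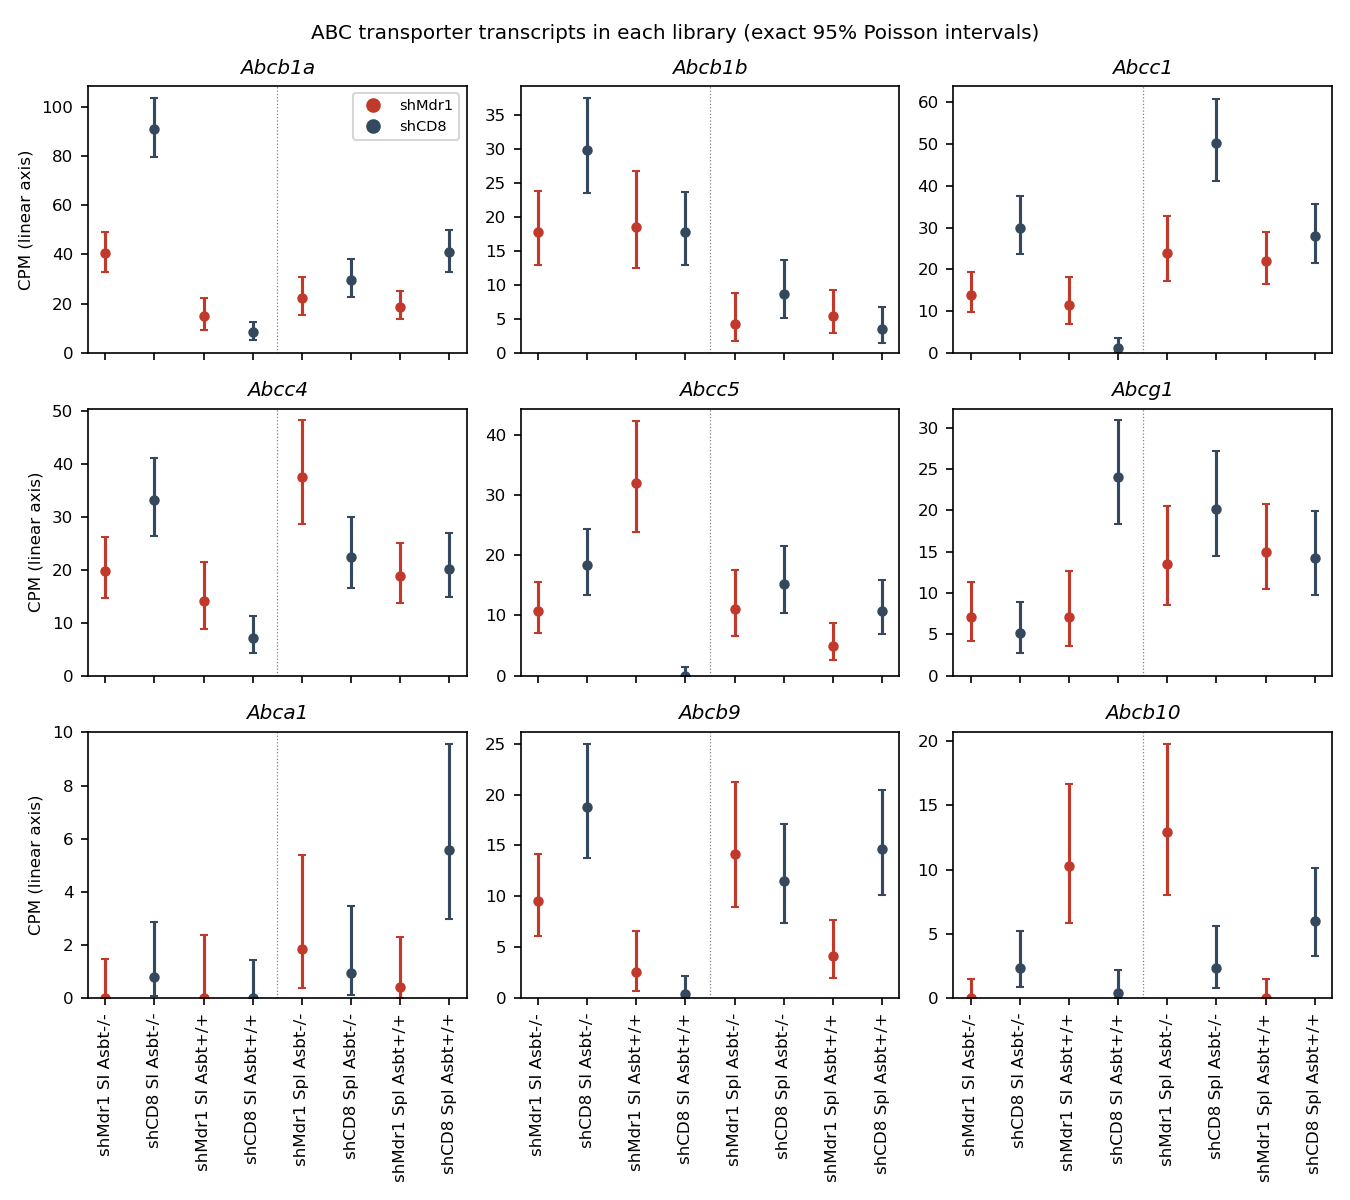
Level of each of the 9 transporters in each of the 8 libraries, in CPM on a linear axis, with small intestine (SI) left and spleen (Spl) right of the dotted line and exact 95% Poisson intervals that cover counting error only. Abcb1a spans 8.28 to 91.0 CPM within small intestine, and Abcb1b lies higher in all 4 small intestine libraries than in any spleen library.

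As ratios with 95% intervals for counting error, shMdr1 over shCD8 was 0.444 (0.348 to 0.563) for Abcb1a in small intestine of Asbt-/- hosts and 0.459 (0.314 to 0.661) in spleen of Asbt+/+ hosts. In spleen of Asbt-/- hosts it was 0.746 (0.481 to 1.14), and in small intestine of Asbt+/+ hosts 1.78 (0.943 to 3.39). Intervals of the first pair of ratios lay below 1 and those of the other pair included it. The pair from small intestine of Asbt+/+ hosts holds the library with the fewest detected genes, and 37.2% of all tested genes were at least 2-fold higher with shMdr1 in it. The part of that library in the Abcb1a ratio was not tested. Over the 8 libraries the log2 fold change of Abcb1a was -0.75 ± 0.61 (SE, adjusted p = 0.999, edgeR quasi-likelihood test with Benjamini-Hochberg adjustment over 10000 genes). It was -0.92 without both small intestine libraries of Asbt+/+ hosts, and -0.11 and -0.14 without the shCD8 small intestine Asbt-/- and the shCD8 spleen Asbt+/+ library.

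Abcb1b was not uniformly lower with shMdr1. The Asbt-/- small intestine pair held 45 counts for shMdr1 and 75 for shCD8, a ratio of 0.596 (0.402 to 0.874). The intervals of the other 3 ratios, 1.05, 0.500 and 1.57, included 1, with 7 to 18 counts per library in spleen. The fitted log2 fold change was -0.27 ± 0.74 (adjusted p = 0.999, edgeR).

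**Figure D2:**
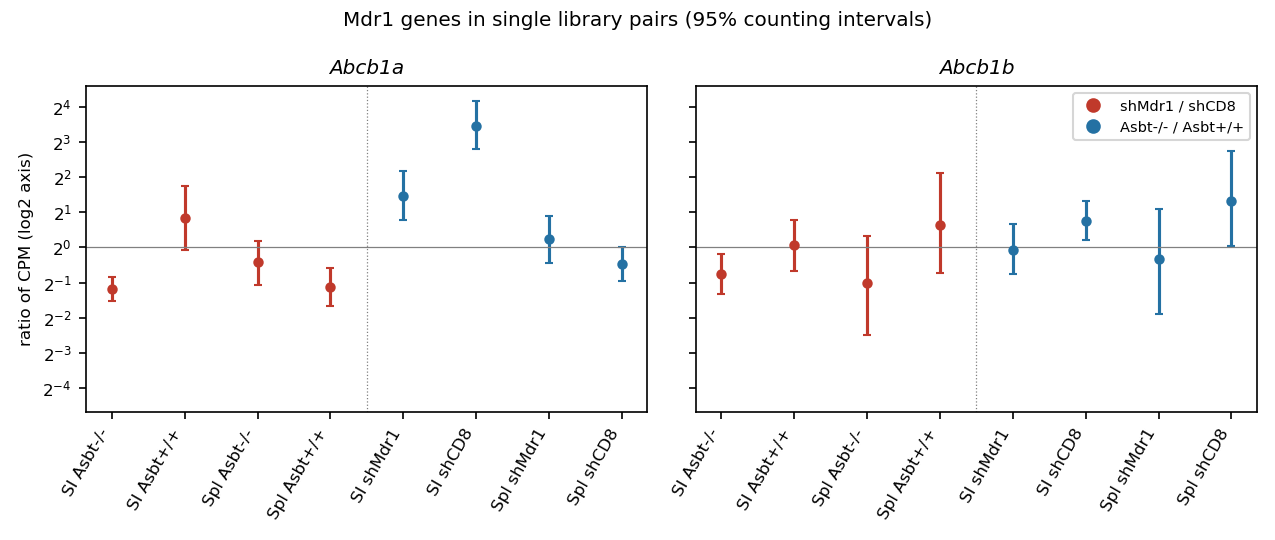
CPM ratio of single library pairs for Abcb1a and Abcb1b on a log2 axis, with shMdr1 over shCD8 left and Asbt-/- over Asbt+/+ right of the dotted line in each panel and 95% intervals for counting error. For Abcb1a the host ratios in small intestine, 2.74 and 11.0, stand above those in spleen, 1.18 and 0.727.

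The other transporters showed no common direction with shMdr1. None of the 8 members that could be tested passed in the hairpin comparison, where 0% of the 10000 tested genes did with edgeR. At an unadjusted p under 0.05, 0 of the 8 members and 2.99% of the tested genes stood out. DESeq2 called 3 genes and limma-voom 0, none of them a member. The fitted differences ran between -0.75 for Abcb1a and 1.18 ± 1.70 for Abcb10, with a median of -0.25, beside 0.09 over all tested genes.

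Abcc1, an exporter of glutathione conjugates and leukotriene C4, was lower with shMdr1 in 3 pairs and higher in 1. It had 35, 39 and 53 counts with shMdr1 against 75, 105 and 65 with shCD8 in small intestine Asbt-/-, spleen Asbt-/- and spleen Asbt+/+ hosts. The Asbt+/+ small intestine pair held 18 counts for shMdr1 and 3 for shCD8, and the fit gave -0.23 ± 0.78. Abcc4, which exports cyclic nucleotides and prostaglandins, had 19.8, 14.1, 37.6 and 18.7 CPM with shMdr1 and 33.1, 7.10, 22.5 and 20.2 CPM with shCD8 in the same order of small intestine Asbt-/-, small intestine Asbt+/+, spleen Asbt-/- and spleen Asbt+/+ hosts. The pairs divided evenly, at 0.13 ± 0.58 on the log2 scale.

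Abcc5, a relative of Abcc4 that also exports cyclic nucleotides, showed the widest gap within a pair. The Asbt+/+ small intestine pair held 50 counts (32.1 CPM) for shMdr1 and 0 for shCD8, where the exact 95% Poisson limit of a count of 0 is 1.46 CPM. In the other 3 pairs it was lower with shMdr1, at 10.7, 11.1 and 5.00 CPM, against 18.4, 15.3 and 10.8 CPM with shCD8 in small intestine Asbt-/-, spleen Asbt-/- and spleen Asbt+/+ hosts. The fitted difference was 0.40 ± 1.27, -0.38 without the shCD8 and -0.49 without the shMdr1 library of that pair, and -0.77 without both.

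Abcg1, the cholesterol exporter of this set with the most counts, had 7.06 CPM in the shMdr1 and 24.1 CPM in the shCD8 library of the Asbt+/+ small intestine pair, and ratios of 0.673 to 1.37 in the other 3 pairs. Its fitted difference was -0.59 ± 0.77. Abca1, its partner in cholesterol export, had 21 counts in all 8 libraries together and did not pass the filter on low counts, so it was not tested. Of these, 13 came from the shCD8 spleen Asbt+/+ library and 3, 2, 2 and 1 from 4 others. Macrophages and dendritic cells also use both exporters. Their 20 markers summed to 581 to 1191 CPM in small intestine and 188 to 529 CPM in spleen, with 9 to 18 of the 20 detected. In the shCD8 small intestine Asbt+/+ library, where Abcg1 was highest, they summed to 977 CPM, the second highest of the 8 libraries, from 9 detected markers, with 30 counts of Csf1r and 0 of C1qa. Their part in the levels was not tested.

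Abcb9, the lysosomal peptide transporter, had 2.57 to 14.2 CPM with shMdr1 and 0.394 to 18.8 CPM with shCD8 (-0.65 ± 1.03). Abcb10 alternated between libraries with no counts and libraries with up to 21. It had 0, 16, 21 and 0 counts with shMdr1 against 6, 1, 5 and 14 with shCD8 in small intestine Asbt-/-, small intestine Asbt+/+, spleen Asbt-/- and spleen Asbt+/+ hosts. Its highest level, 12.9 CPM, fell in the library with the most erythroid RNA, cells in which Abcb10 is strongly expressed. The part of that RNA was not tested, and Abcb10 also had 10.3 CPM in the shMdr1 small intestine Asbt+/+ library, where erythroid markers summed to 88.6 CPM.

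**Figure D3:**
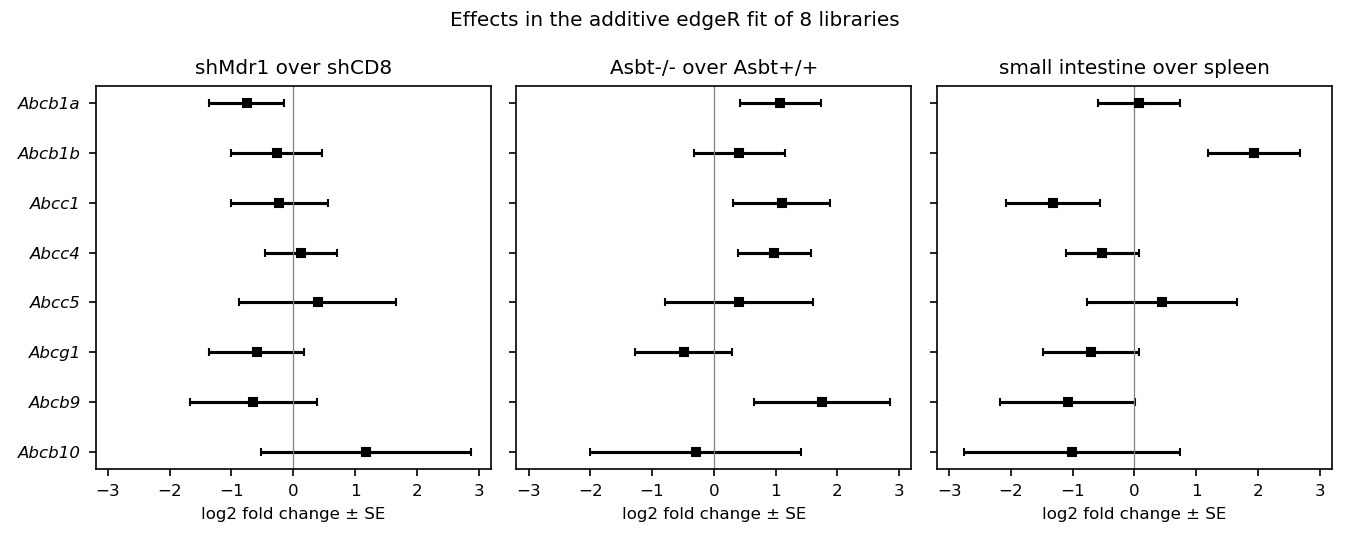
Fitted log2 fold changes with their SE for the 8 tested transporters, from the additive edgeR model of 8 libraries, for shMdr1 over shCD8, Asbt-/- over Asbt+/+ and small intestine over spleen. Abcb1b in the tissue comparison, at 1.94 ± 0.75, is the value farthest from 0 in units of its SE.

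The host comparison asks whether the transporters differ in T cells from mice that lack intestinal bile acid uptake. Abcb1a was higher in Asbt-/- than in Asbt+/+ hosts in both small intestine pairs, and in 1 of the 2 spleen pairs. In small intestine it had 40.4 CPM in Asbt-/- and 14.8 CPM in Asbt+/+ hosts with shMdr1, a ratio of 2.74 (1.73 to 4.51). With shCD8 it had 91.0 CPM in Asbt-/- and 8.28 CPM in Asbt+/+ hosts, a ratio of 11.0 (7.02 to 18.1). In spleen the ratios were 1.18 (0.742 to 1.88) with shMdr1 and 0.727 (0.519 to 1.01) with shCD8, whose intervals included 1. The small intestine libraries of the hosts did not overlap, with 2 libraries each, which held in the same direction for 23.7% of all tested genes. Those of spleen overlapped.

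Within small intestine the fitted host effect on Abcb1a was 2.45 ± 0.81 on the log2 scale (adjusted p = 0.624, edgeR). Its unadjusted p lay under 0.05, as did that of 7.43% of the tested genes, 0% of which passed after adjustment. In spleen it was -0.11 ± 0.75. The difference between the tissues was 2.57 ± 1.10 (adjusted p = 0.937, edgeR). DESeq2 gave an adjusted p of 0.138 and limma-voom 0.399 for the effect in small intestine. Without the shMdr1 small intestine Asbt-/- or the shMdr1 small intestine Asbt+/+ library it was 3.45 and passed (adjusted p = 6.93e-07 and 2.51e-07, edgeR). Without the shCD8 small intestine Asbt-/- or the shCD8 small intestine Asbt+/+ library it was 1.45 and did not (adjusted p = 0.15 and 0.0851). In the same fits 41.4% and 41.1% of all tested genes passed without either shMdr1 library, and 10.7% and 10.5% without either shCD8 library, so the calls of Abcb1a there are read against that share. Each of these fits had 1 residual degree of freedom, which came from spleen alone, and assumes that the lone small intestine libraries vary like spleen.

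Gut epithelium, which also expresses Abcb1a, was not equally represented in these libraries. Its 17 markers summed to 89.2 and 54.3 CPM in small intestine of Asbt-/- hosts, with 8 markers detected in each library. In small intestine of Asbt+/+ hosts they summed to 808 and 287 CPM, with 11 and 12 detected. The spleen sums were 0 and 10.5 CPM in Asbt-/- hosts and 142 and 48.6 CPM in Asbt+/+ hosts, for shMdr1 and shCD8. The shMdr1 spleen Asbt+/+ library, with 10 markers detected, thus stood above both small intestine libraries of Asbt-/- hosts. Epcam had 0 counts in both small intestine libraries of Asbt-/- hosts, and 22 and 33 in those of Asbt+/+ hosts. Fabp1 of the same list went the other way, with counts in both small intestine libraries of Asbt-/- hosts and 0 in those of Asbt+/+ hosts. Within the Asbt+/+ small intestine libraries the one with more epithelial RNA also had more Abcb1a, 14.8 CPM beside 8.28 CPM. Within the Asbt-/- small intestine libraries the one with more epithelial RNA had less Abcb1a, 40.4 CPM beside 91.0 CPM. The part of epithelial RNA in the Abcb1a levels was not tested. Since the samples are bulk RNA, fewer cells with Abcb1a and less Abcb1a per cell cannot be told apart.

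Over all 8 libraries the host effect on Abcb1a was 1.07 ± 0.65 (adjusted p = 0.996, edgeR), with 3 of 4 pairs higher in Asbt-/- hosts, and -0.12 without both small intestine libraries of Asbt+/+ hosts. Abcb1b differed less, at 0.42 ± 0.74, and its host effect did not differ by tissue beyond its error (-0.15 ± 1.55). The difference in the hairpin effect between Asbt-/- and Asbt+/+ hosts was -0.39 ± 1.31 for Abcb1a and -1.20 ± 1.63 for Abcb1b (adjusted p = 1 for both). Between small intestine and spleen the hairpin effect differed by 0.55 ± 1.08 for Abcb1a and -0.17 ± 1.60 for Abcb1b. With SEs above 1 on the log2 scale, 2-fold differences between conditions were not detectable in these terms.

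Among the organic anion exporters, Abcc1 and Abcc4 were higher in Asbt-/- hosts in 4 of 4 pairs each, a pattern that 8.64% of all tested genes shared. Abcc1 had 13.9, 29.9, 24.0 and 50.3 CPM in Asbt-/- hosts, against 11.6, 1.18, 22.1 and 28.0 CPM in Asbt+/+ hosts, for shMdr1 and shCD8 in small intestine and shMdr1 and shCD8 in spleen. Its log2 fold change was 1.10 ± 0.78, and ran between 0.45 without the shCD8 small intestine Asbt+/+ library and 1.62 without the shMdr1 spleen Asbt-/- library. Abcc4 had 19.8, 33.1, 37.6 and 22.5 CPM in Asbt-/- hosts, against 14.1, 7.10, 18.7 and 20.2 CPM in Asbt+/+ hosts, and its log2 fold change was 0.98 ± 0.59. For both genes the ranges of the hosts overlapped, and the widest ratio came from the shCD8 small intestine pair, which includes the library with the fewest detected genes.

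Abcb9 had a fitted host difference of 1.75 ± 1.10, with 9.51 to 18.8 CPM in Asbt-/- hosts and 0.394 to 14.6 CPM in Asbt+/+ hosts. It was higher in 3 of 4 pairs, and the fitted value was 1.12 without the shCD8 small intestine Asbt+/+ library, 2.74 without the shCD8 spleen Asbt+/+ library and 0.67 without both small intestine libraries of Asbt+/+ hosts. Abcc5 (0.41 ± 1.20), Abcg1 (-0.49 ± 0.78) and Abcb10 (-0.30 ± 1.71) had differences smaller than their SE. None of the 8 tested members passed the test between hosts, where edgeR called 0% of the genes and 2.71% had an unadjusted p under 0.05. DESeq2 called 6 genes and limma-voom 0, with no member among them. Over the tested members 6 values were above 0 and 2 below, with a median of 0.70, beside 0.11 over all tested genes.

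Abcb1b was higher in small intestine than in spleen in 4 of 4 pairs and without overlap, at 17.8, 29.9, 18.6 and 17.8 CPM in small intestine and 4.31, 8.62, 5.41 and 3.44 CPM in spleen, for shMdr1 and shCD8 in Asbt-/- and shMdr1 and shCD8 in Asbt+/+ hosts. Means were 21.0 ± 5.95 CPM in small intestine and 5.45 ± 2.27 CPM in spleen (SD, n = 4 each). Single pairs gave ratios of 3.44 to 5.16. The fitted log2 fold change was 1.94 ± 0.75 (adjusted p = 0.481, edgeR) and did not pass over all genes. Among the tested genes 8.14% were higher in small intestine in 4 of 4 pairs, 3.39% were so without overlap, 8.45% had an unadjusted p under 0.05, and 0.62% passed. Leaving out any of the 8 libraries gave between 1.74 and 2.17, and the adjusted p was 0.112 with DESeq2 and 0.365 with limma-voom.

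For Abcb1a the fitted tissue difference was 0.07 ± 0.66 (adjusted p = 0.987, edgeR). Its mean was 38.6 ± 37.6 CPM in small intestine and 27.9 ± 9.79 CPM in spleen (SD, n = 4 each), and the small intestine libraries lay on both sides of the spleen libraries. In Asbt-/- hosts the ratio of small intestine to spleen was 1.82 with shMdr1 and 3.07 with shCD8. In Asbt+/+ hosts it was 0.788 with shMdr1 and 0.203 with shCD8. Without both small intestine libraries of Asbt+/+ hosts the fit gave 1.25 (adjusted p = 0.241).

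The balance of the Mdr1 genes can be read within a library, where library size cancels out. Abcb1a made up 69.4%, 75.2%, 44.2% and 31.8% of the counts of both genes in small intestine, for shMdr1 and shCD8 in Asbt-/- and shMdr1 and shCD8 in Asbt+/+ hosts. In spleen it made up 83.7%, 77.5%, 77.6% and 92.2% in the same order. The 95% Wilson intervals were 61.5% to 76.3%, 70.1% to 79.8%, 31.6% to 57.7% and 21.9% to 43.8% in small intestine. Every spleen library lay above every small intestine library, and within small intestine both Asbt-/- libraries lay above both Asbt+/+ libraries.

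The mean share was 55.2% ± 20.6 in small intestine and 82.8% ± 6.96 in spleen (SD, n = 4 each), a difference of -27.6 percentage points. An exact two-sided permutation test gave p = 0.0286, the smallest that the 70 splits of 8 libraries allow, and 0.0858 after adjustment over the 3 factors. In the same exact permutation test the difference for hairpin was -0.47 percentage points (p = 1) and for host 15 percentage points (p = 0.4). These splits did not keep the matched pairs of libraries. The share was chosen after its values had been seen, so the p for tissue adds no support to the separation described above.

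**Figure D4:**
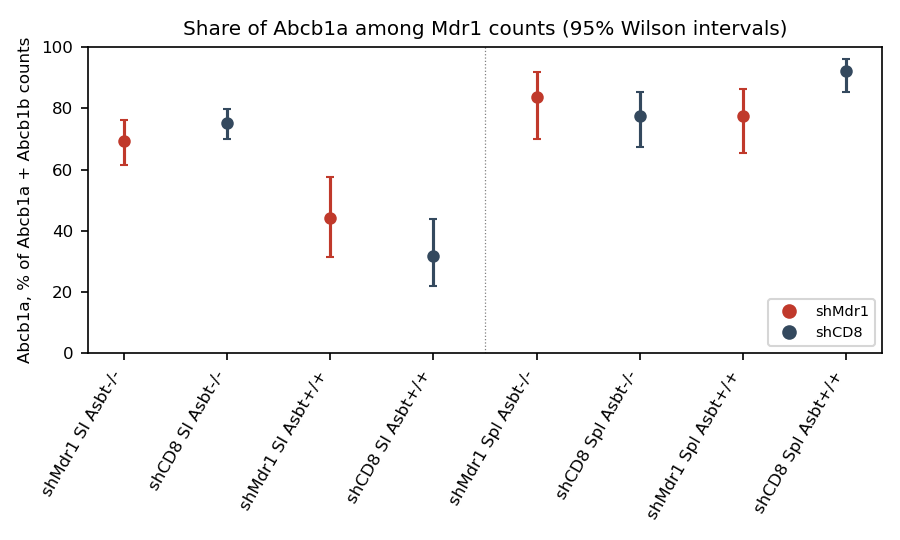
Percent of Abcb1a among the counts of Abcb1a and Abcb1b in each library, with 95% Wilson intervals that cover counting error only, small intestine (SI) left and spleen (Spl) right of the dotted line. Spleen libraries lie between 77.5% and 92.2%, and small intestine libraries between 31.8% and 75.2%.

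The remaining members did not pass the test between tissues, and most of their values were below 0. Of all 8 tested members 5 lay below 0, with a median of -0.61. Among the 10000 tested genes 5885 did, with a median of -0.17. Abcc1 was lower in small intestine in 4 of 4 pairs, as were 11.8% of all tested genes. Its means were 14.1 ± 11.9 CPM in small intestine and 31.1 ± 13.0 CPM in spleen (SD, n = 4 each), and its log2 fold change was -1.32 ± 0.77 (adjusted p = 0.717, edgeR). Its ranges overlapped through the shCD8 small intestine Asbt-/- library at 29.9 CPM. Abcg1 was lower in small intestine in 3 pairs and higher in the pair of shCD8 libraries from Asbt+/+ hosts, at -0.70 ± 0.78. Abcc4 (-0.52 ± 0.59), Abcb9 (-1.08 ± 1.09) and Abcb10 (-1.01 ± 1.75) had negative values within 1 SE of 0, and Abcc5 a positive one (0.45 ± 1.22). Abca1 had 2 counts in the 4 small intestine libraries and 19 in the 4 spleen libraries. None of the 8 tested members passed, beside 0.62% of all tested genes, and 1 of them, Abcb1b, had an unadjusted p under 0.05.

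Levels of different genes were compared per kilobase of exon (CPM per kb over the merged exons of GENCODE vM21, GRCm38). Abcb1a had the highest level of the members, 6.06 ± 4.76 CPM per kb (SD over 8 libraries), and the sixth highest of the 53 family genes in the table. Abcf1, a translation factor of the family without membrane domains, led with 34.7 CPM per kb. It was followed by Tap1 (28.8) and Tap2 (16.8), which transport peptides for loading onto MHC class I. Next came the lipid transporter Abca7 (13.2) and the ribosome recycling factor Abce1 (8.18). Below Abcb1a came Abcc4 at 3.39, Abcg1 at 1.82, Abcb9 at 1.69, Abcb1b at 1.66, Abcc1 at 1.5, Abcc5 at 1.21, Abcb10 at 0.999 and Abca1 at 0.116 CPM per kb. Members next to each other in this order differed by less than the larger of their SDs over libraries (0.182 to 4.76), except Abcc4 and Abcg1, whose gap was just above it (SD 1.53 for Abcc4 and 0.91 for Abcg1). In small intestine Abcb1b averaged 2.63 CPM per kb and in spleen 0.681 CPM per kb. The merged exons of Abcb1b take up 7990 bases, while its longest coding transcript has 4306. For Abcb1a these lengths are 5480 and 4997 bases. The order of the members may therefore change with the length used, and another choice was not examined.

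Of the 53 family genes, 39 had at least 1 count and 25 could be tested. None passed in any of the 3 comparisons, where 0.62% of all tested genes passed by tissue, 0% by hairpin and 0% by host. By tissue, 8 of the 25 values were above 0 and 17 below, with a median of -0.31 beside -0.17 over all tested genes. Besides Abcb1b, the smallest p belonged to Abca7, at -1.28 ± 0.49 (adjusted p = 0.466, edgeR), lower in small intestine in 4 of 4 pairs. By hairpin, 10 values were above 0 and 15 below, with a median of -0.23 beside 0.09. The smallest p belonged to Abcg3, a rodent member of the family that includes the drug exporter Abcg2, at -1.49 ± 0.85 and lower with shMdr1 in 4 of 4 pairs (7.38% of all tested genes), and to Abca7 at 0.80 ± 0.49. By host, 16 values were above 0 and 9 below, with a median of 0.20 beside 0.11. Here the smallest p belonged to the peroxisomal transporter Abcd3, at -4.06 ± 1.77 on 0 to 13 counts per library, and to Abce1, at -0.88 ± 0.38.

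Genes of the pathways around the transporters were counted in the same way. In the tissue comparison the one that passed was Crem, a transcription factor of the cAMP response, among 12 tested genes of cyclic nucleotide signalling. It was higher in small intestine by 3.03 ± 0.29 on the log2 scale (adjusted p = 0.00152, edgeR, 4 of 4 pairs), beside 0.51% of all tested genes called higher there, and 9 of the 12 values were above 0, with a median of 0.68. Of 10 tested genes of cholesterol efflux and its nuclear receptors (LXRs), 3 were above 0 and 7 below, with a median of -0.42. The smallest p were those of the lipid carrier Apoe (3.05 ± 0.71, adjusted p = 0.111) and of the phospholipid enzyme Lpcat3 (-3.29 ± 1.30, adjusted p = 0.505). Of 6 tested receptors and regulators of drug transporters, 5 were above 0, led by the hypoxia factor Hif1a (0.98 ± 0.23, adjusted p = 0.111) and the glucocorticoid receptor Nr3c1 (0.76 ± 0.27). The xenobiotic receptors Nr1i2 and Nr1i3 had 1 and 0 counts in all libraries together.

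None of 15 tested genes of glutathione synthesis and conjugation passed by tissue, with 6 values above 0, a median of -0.07, and Gsto1 (1.88 ± 0.52) and Ggt1 (-1.83 ± 0.62) at the smallest p. None of 16 genes of peptide loading passed, with 10 above 0, a median of 0.23, and the chaperones Canx (0.49 ± 0.22) and Pdia3 (0.47 ± 0.23) at the smallest p. None of 14 genes of mitochondrial ABC transport and heme synthesis passed, with 12 below 0, a median of -0.84, and the heme enzymes Ppox (-2.36 ± 0.96) and Urod (-1.86 ± 0.81) at the smallest p. The erythroid markers, 8 tested, had a median tissue difference of -7.85 in the same libraries, and their part in the heme genes was not tested.

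With shMdr1 over shCD8 and with Asbt-/- over Asbt+/+ no gene of these lists passed, as 0% of the 10000 tested genes did in either comparison. For the hairpin the genes with the smallest p were Smpdl3a (-0.61 ± 0.22) and Scd2 (-0.80 ± 0.53) of cholesterol efflux, Rxra (-1.15 ± 0.97) and Nr3c1 (-0.31 ± 0.26) of the receptors, and Mgst3 (2.00 ± 0.79) and Gstp1 (1.01 ± 0.44) of the glutathione genes. They were Prkar2a (1.88 ± 0.69) and Pde7a (-0.42 ± 0.37) of cyclic nucleotide signalling, Canx (-0.54 ± 0.22) and Tapbp (0.38 ± 0.26) of peptide loading, and Ppox (1.59 ± 0.94) of the mitochondrial list. Their medians ran between -0.31 for the cholesterol genes and 0.32 for the mitochondrial list.

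For the host they were Rxrb (0.96 ± 0.63) and Rxra (-1.48 ± 0.99), which belong to both the cholesterol and the receptor list, Ggt1 (1.89 ± 0.60) and Gstp1 (-0.60 ± 0.43) of the glutathione genes, and Pde4b (0.57 ± 0.27) and Pde7a (0.44 ± 0.37) of cyclic nucleotide signalling. In peptide loading they were Tap1 (0.42 ± 0.25, higher in Asbt-/- hosts in 4 of 4 pairs) and Abcb9, and in the mitochondrial list Fech (2.15 ± 1.08) and Slc25a28 (0.80 ± 0.55). The medians ran between -0.24 for the glutathione genes and 0.26 for the mitochondrial list.

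The genes whose levels followed Abcb1a most closely over the 8 libraries were found by the mean absolute gap between log2 CPM values, each centred on its own mean. Among 6711 candidates with a mean of at least 10 CPM the median gap was 0.906. It was 0.3 for Lrrc59, 0.349 for Synj2, 0.350 for Dpp8, 0.359 for Casp4 and 0.373 for Aggf1. Lrrc59 had 14.3 CPM in the shMdr1 and 16.8 CPM in the shCD8 small intestine library of Asbt-/- hosts, and 4.49 CPM in the shMdr1 and 2.37 CPM in the shCD8 small intestine library of Asbt+/+ hosts. Like Abcb1a it was lowest in small intestine of Asbt+/+ hosts, on 7 and 6 counts. Lrrc59 was picked for its likeness to Abcb1a, so this adds no support to the pattern. All of these values share the same libraries and depths, and no test was made of them.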

How the data were processed

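RNA-seq was measured in 8 mouse libraries. Per the labels' protocols, an ultra-low-input SMART-Seq v4 kit and a NEBNext Ultra II kit were used, without molecular identifiers, so intervals and floors cover counting error only. The authors deposited raw whole-number counts of reads for each gene. TopHat, HTSeq and DESeq2, with build mm9, appear in the submitters' processing notes, with no versions. Annotation and strandedness are not given in the sources used. Counts of Abcb1a with Abcb1b are uncertain for that reason, as are those of genes with an antisense gene on their exons in GENCODE vM21 (Abcb1a, Abcb1b, Abcb9 and Abcb10).

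Of 37411 genes, 17570 had a count and 10000 passed filterByExpr of edgeR (99.52% of counts). The quasi-likelihood test of edgeR 4.0.16 (R 4.3.3) was applied after TMM scaling, and p-values were adjusted by Benjamini-Hochberg over those 10000 genes (threshold 0.05). CPM uses TMM-scaled library sizes. The SE of a log2 fold change is its size divided by the square root of F. The additive fit of tissue, hairpin and host had 4 residual degrees of freedom, the fit with separate effects in each tissue 2, and the hairpin by host fit 3. The labels do not say which libraries shared an animal, so p-values reflect only library-to-library spread, possibly technical. Pairs of single libraries have exact conditional intervals and no test. Promoters came from RefSeq (GRCm38.p6), for 7 of the 9 members.

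The members and gene lists were chosen with earlier results of these data known. All 9 members were described. From other lists the genes that passed were named, or the 2 with the smallest p, of which 1 is not reported here. The alternatives comprised limma-voom (limma 3.58.1), the Wald test of DESeq2 1.42.0, its size factors in edgeR, an unfiltered table, no covariates, a replicate block for matched pairs, removal of hemoglobin, mitochondrial and Rn18s-rs5 counts, another prior count, and leaving out libraries. The script was tested on simulated data.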

Additional observations from a re-analysis of the deposited data

Results flagged for a closer look

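Of 54 groups of 4 libraries examined, 4 held a library far from the other 3. Chance would flag about 1 in 20 groups of independent replicates. The groups here mix levels of the other factors and share libraries, so that rate does not apply to them and no excess is claimed. Abcb1b had 29.93 CPM in the shCD8 small intestine Asbt-/- library, against 17.75 to 18.61 CPM in the other small intestine libraries. Abcg1 had 24.06 CPM in the shCD8 small intestine Asbt+/+ library, against 5.188 to 7.132 CPM in the others. Abca1 had 0.7981 CPM, on 2 counts, in the shCD8 small intestine Asbt-/- library and 0 in the other small intestine libraries, where any count would be flagged. It had 5.589 CPM, on 13 counts, in the shCD8 spleen Asbt+/+ library, against 0 to 0.4162 CPM in the other Asbt+/+ libraries.

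In 3 comparisons all library pairs of one kind moved one way and those of the other kind the opposite way. The share of all tested genes with such a pattern was not counted. It can arise by chance, so it is not read as particular to these genes. The log2 ratio of Abcb1a in small intestine over spleen averaged 1.21 in Asbt-/- hosts and -1.25 in Asbt+/+ hosts, a difference of 2.468, and the test of the host effect by tissue gave an adjusted p of 0.937 (edgeR). The log2 ratio of Abcb1b for shMdr1 over shCD8 averaged -0.79 in Asbt-/- hosts and 0.30 in Asbt+/+ hosts, a difference of -1.096. The ratio for Asbt-/- over Asbt+/+ averaged -0.17 with shMdr1 and 0.93 with shCD8, which is the same difference of -1.096. The hairpin by host term gave an adjusted p of 1 (edgeR).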

How the results depend on the processing

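The log2 fold changes of the 8 tested members by tissue, hairpin and host, and of Abcb1a and Abcb1b in the interactions and Abcb1a within tissues, gave 502 values under alternatives. Of these 443 kept their direction and their side of the threshold, 55 changed sign and 4 passed, all of Abcb1a (host in small intestine and host by tissue, each without 1 of the shMdr1 small intestine libraries). No member passed by tissue, hairpin or host under any alternative. DESeq2 gave no adjusted p for Abcb1a between hosts in spleen or for Abcb1b in host by tissue. The cause of the changes below was not tested. The number of all genes past the threshold by tissue was 165 with no filter, 257 with DESeq2, 40 without both small intestine Asbt+/+ libraries and 12 to 145 without 1 library. By hairpin it was 9 with no filter and 3 with DESeq2. By host it was 14 with no filter, 6 with DESeq2 and 0 to 4 without 1 library. For hairpin by host it was 3 with no filter, 3 with limma-voom and 0 to 769 without 1 library. It was 1 with DESeq2 and 1 to 2919 without 1 library for hairpin by tissue, and 22 and 0 to 3290 for host by tissue. The members among these were 0 to 1 (Abcc5), 0 to 2 (Abcc1, Abcc5) and 0 to 4 (Abcb1a, Abcc1, Abcc5, Abcb9) for hairpin by host, hairpin by tissue and host by tissue, in fits with 1 or 2 residual degrees of freedom.

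Signs changed with limma-voom for Abcc5 by tissue (-0.36), Abcb10 by hairpin (-0.72) and host (0.45), and Abcb1a in hairpin by tissue (-0.0824). Without both small intestine Asbt+/+ libraries they changed by hairpin for Abcc4 (-0.0421), Abcc5 (-0.77) and Abcb10 (-2.07), and by host for Abcb1a (-0.12), Abcg1 (0.21) and Abcb10 (2.87). With a replicate block for matched library pairs they changed for Abcc5 by tissue (-0.14), Abcb10 by hairpin (-0.23) and Abcb10 by host (0.35), and the block changed no other member call or sign. Without covariates Abcb10 by host was 0.085. The libraries carry no replicate numbers, so the pairs are set by the design.

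Leaving out 1 library gave values on both sides of 0. By tissue the ranges were -0.455 to 0.67 for Abcb1a, -1.229 to 1.032 for Abcc5 and -3.879 to 0.788 for Abcb10. By hairpin they were -0.829 to 0.383 for Abcc1, -0.0835 to 0.545 for Abcc4, -0.488 to 0.923 for Abcc5, -0.866 to 0.012 for Abcg1, -1.025 to 0.451 for Abcb9 and -2.304 to 2.205 for Abcb10. By host they were -0.173 to 2.133 for Abcc5, -0.746 to 0.0599 for Abcg1 and -1.963 to 2.752 for Abcb10. In the interactions they were -0.387 to 1.611 for Abcb1a and -0.977 to 0.65 for Abcb1b in hairpin by tissue, -0.964 to 0.672 for Abcb1b in host by tissue and -2.338 to 0.857 for Abcb1a in hairpin by host. For Abcb1a they were -1.171 to 0.83 between hairpins in small intestine and -0.473 to 0.257 between hosts in spleen. The Abcb1a share differed by -34.28 to -19.8 percentage points between tissues (unadjusted p = 0.0286 to 0.143, exact permutation test). The within-tissue and share alternatives were chosen after seeing the data. At 0 to 228 counts per member and library, counting error alone limits single values.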
